A study of Mus musculus with 6 samples.

Results

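The 10 genes described here encode core members of the BCL2 family, the proteins that set whether the mitochondrial outer membrane stays closed or opens during apoptosis. They were taken by symbol from the 55401 genes of the deposited table, and each symbol matched 1 row. The list was chosen with earlier results of these data known. The anti-apoptotic genes are Bcl2, Bcl2l1 (which encodes BCL-XL), Mcl1 and Bcl2a1b (A1). The pro-apoptotic genes are the membrane-permeabilising effectors Bax and Bak1 and the BH3-only genes Bcl2l11 (BIM), Bbc3 (PUMA), Bid and Pmaip1 (NOXA). RNA-seq counts were compared between 3 NETs-treated and 3 untreated control samples of mouse cells of wild-type (WT) genotype. NETs are neutrophil extracellular traps, the webs of chromatin and granule protein that neutrophils release. The cell type label of both groups is BMDM (macrophages grown from bone marrow), but every sample title reads BV2, the name of a microglial cell line from mouse. The labels state neither the dose of NETs nor the length of exposure. Nothing says that replicates were separate cultures, so each p-value measures the spread of these 6 samples, and that spread may be technical.

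In healthy cells the anti-apoptotic proteins hold BAX and BAK1 in check, and BH3-only proteins, induced or activated by stress, bind the anti-apoptotic proteins or the effectors directly. The BH3-only proteins differ in their partners: BIM and PUMA bind all the main anti-apoptotic proteins, while NOXA binds mainly MCL1 and A1. MCL1 protein is short-lived, and macrophages and neutrophils are known to lean on MCL1 and A1 for survival. The counts measure transcripts only, and protein level, phosphorylation and cell death were not part of the data.

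Total counts ran from 39994613 to 43686531 in the NETs-treated and from 41830940 to 44274445 in the control libraries, and 15272 genes, all 10 members among them, had enough counts to be tested. Levels are given as CPM, counts divided by the TMM-scaled library size. Replicates were less alike in the NETs-treated group, with a median SD of log2 CPM over genes of 0.20, against 0.12 among the control libraries. Levels also drifted with GC content. At a transcript GC content of 55% the fitted log2 deviation from a gene's mean was 0.04, -0.07 and -0.16 in NETs-treated replicates 1, 2 and 3, and 0.14, 0.08 and 0.08 in control replicates 1, 2 and 3. At 45% it was -0.05, 0.05 and 0.10 in the NETs-treated and -0.04, 0.03 and 0.02 in the control replicates. Of 10 macrophage markers, 9 reached 1 CPM in at least 1 library, with summed levels of 10678 to 10909 CPM in NETs-treated and 6177 to 6331 CPM in control libraries, while Aif1 stayed below 1 CPM. The microglial marker Sall1 was at 0 in all 6 libraries, and 4 of 10 microglial markers stayed below 1 CPM throughout. Of 14 neutrophil markers, 7 were at 0 in all 6 libraries, among them Ngp, Ltf, Mpo, Ly6g and S100a9; the summed level was 10.9 to 17.0 CPM in NETs-treated and 12.6 to 15.2 CPM in control libraries. Within that sum S100a8 rose to 11.7 ± 2.67 CPM in NETs-treated cells, against 2.68 ± 0.591 CPM in control, while Csf3r fell to 0.127 ± 0.142 CPM in NETs-treated cells, against 6.21 ± 1.80 CPM in control (SD, n = 3 each), and Prtn3 and Cxcr2 were also called lower. The part of these markers in the members' levels was not tested.

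Of the 10 members, 2 rose (Mcl1 and Bcl2l11) and 4 fell (Bcl2, Bcl2l1, Bbc3 and Bak1) in NETs-treated cells, while Bcl2a1b, Bax, Bid and Pmaip1 did not pass the test (quasi-likelihood test of edgeR, with p-values adjusted over all genes tested and a threshold of 0.05). Each direction held both kinds of gene: 1 anti-apoptotic and 1 pro-apoptotic member rose, and 2 of each fell. Of all genes tested, 25.5% were called higher and 27.2% lower, together 52.7%, so 6 called of 10 members is close to the share in the whole table. The 6 called members were also those whose groups did not overlap, and 62.4% of all genes tested did not overlap (29.9% with every NETs-treated library above every control library and 32.5% below). At least a 2-fold change was called for 4 members, Bcl2l11 upwards and Bcl2, Bcl2l1 and Bbc3 downwards, and for 19.3% of all genes tested (7.39% upwards and 11.9% downwards). The median log2 fold change of the members was -0.19, against -0.02 over all genes tested.

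**Figure D1:**
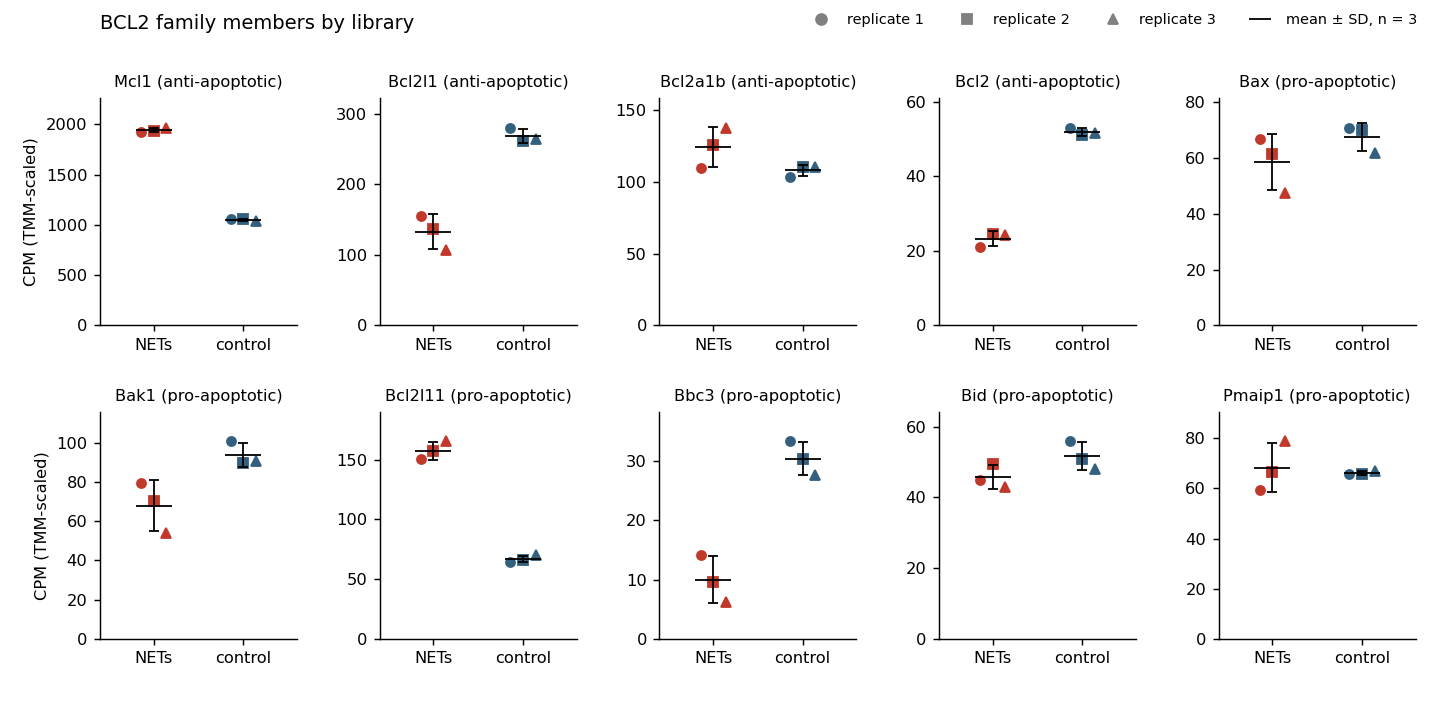
TMM-scaled CPM of the 10 members (vertical axes, linear from 0) in the 3 NETs-treated and 3 control libraries, with marker shapes for the replicate number and bars for mean ± SD (n = 3). The groups are apart for Mcl1, Bcl2l1, Bcl2, Bak1, Bcl2l11 and Bbc3 and overlap for Bcl2a1b, Bax, Bid and Pmaip1.

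Among the anti-apoptotic genes, Mcl1 was by far the most abundant and the one that rose. Its level was 1928, 1930.5 and 1964 CPM with NETs, against 1053, 1053 and 1040.3 CPM in control libraries. All 3 NETs-treated libraries lay within a narrow band well above the control band. Its log2 fold change was 0.89 ± 0.05 (SE), a 1.85-fold rise (adjusted p = 2.14e-06). Mcl1 (ENSMUSG00000038612.16) lies on chromosome 3 from 95658788 to 95663176 on the plus strand of GRCm38. In a mixed sample a higher level can come from more RNA per cell or from more cells of a type that holds more of it, and the counts cannot tell these apart.

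Bcl2, the founding member of the family, fell to 20.9, 24.5 and 24.3 CPM in NETs-treated cells, against 52.98, 51.2 and 51.5 CPM in control. No library of one group came near the other. On the log2 scale the fold change was -1.16 ± 0.09 (SE), a level 2.23-fold lower (adjusted p = 1.55e-05). Bcl2 (ENSMUSG00000057329.7) spans 106538178 to 106714274 on the minus strand of chromosome 1. An antisense gene, D630008O14Rik, overlaps its exons and had a mean of 0.140 ± 0.0304 CPM in NETs-treated and 0.294 ± 0.158 CPM in control cells (SD, n = 3 each).

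Bcl2l1 fell as well, to 155, 137 and 106 CPM in NETs-treated libraries, against 280, 261 and 264 CPM in control libraries. Here the NETs-treated libraries spread widely, replicate 3 being the lowest, but stayed below every control library. The log2 fold change was -1.02 ± 0.13 (SE; adjusted p = 2.18e-04), and -0.87 without NETs-treated replicate 3. This gene (ENSMUSG00000007659.18) spans 152780668 to 152831728 on the minus strand of chromosome 2.

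Bcl2a1b, whose product A1 is induced by NF-kB in myeloid cells, was the second most abundant member per length and did not pass. It had 110, 125 and 137 CPM in NETs-treated libraries, against 103, 110 and 110 CPM in control libraries. NETs-treated replicate 1 lay between the control libraries, and the other two lay above them. With a log2 fold change of 0.20, Bcl2a1b had a 95% interval from -0.01 to 0.41 (adjusted p = 0.0937). Without NETs-treated replicate 1 it was 0.31, with an adjusted p of 0.00808. The range of the adjusted p over the other processing choices was 0.00808 to 0.278.

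The mouse genome carries near-identical A1 genes, so reads of Bcl2a1b are hard to assign. Of its 75-base transcript windows in GENCODE M21, 43.5% also occurred in Bcl2a1a or Bcl2a1d, and how such reads were counted is not known from the labels. Bcl2a1d had a mean of 19.0 ± 1.69 CPM in NETs-treated and 16.1 ± 0.354 CPM in control cells, and Bcl2a1a 6.81 ± 1.52 CPM in NETs-treated and 5.18 ± 0.474 CPM in control cells (SD, n = 3 each). Neither passed the test. Summed over the 3 genes, which was chosen after seeing the data, the level was 135, 152 and 163 CPM in NETs-treated and 124, 132 and 131 CPM in control libraries, so that the groups were apart. The log2 fold change of the sum was 0.21 ± 0.08 (SE; adjusted p = 0.0532). The predicted gene Gm29094 overlaps Bcl2a1b on the same strand and had 5.43 ± 0.817 CPM in NETs-treated and 2.21 ± 0.993 CPM in control cells; with it in the sum, the log2 fold change was 0.24 ± 0.08 (adjusted p = 0.0333). The promoters of the A1 genes were also alike. A local alignment of the Bcl2a1b and Bcl2a1d windows (250 bases before to 50 after the RefSeq start site, GRCm38.p6) ran over 256 columns, of which 96.5% were identical. They are shown to let the near-identity be seen, 5′ to 3′ along the gene. Capitals mark the C/EBP-ATF composite element TGATGNAA, which 3.91% of 32544 RefSeq promoter windows of this length held on either strand. The Bcl2a1b window lies at chr9:89199023-89199322 (plus strand) and that of Bcl2a1d at chr9:88731801-88732100 (minus strand).
Bcl2a1b: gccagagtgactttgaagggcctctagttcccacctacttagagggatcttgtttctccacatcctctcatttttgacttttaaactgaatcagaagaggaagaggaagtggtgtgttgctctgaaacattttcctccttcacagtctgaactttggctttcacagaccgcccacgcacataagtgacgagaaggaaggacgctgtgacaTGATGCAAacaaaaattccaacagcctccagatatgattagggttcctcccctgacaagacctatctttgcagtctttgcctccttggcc
Bcl2a1d: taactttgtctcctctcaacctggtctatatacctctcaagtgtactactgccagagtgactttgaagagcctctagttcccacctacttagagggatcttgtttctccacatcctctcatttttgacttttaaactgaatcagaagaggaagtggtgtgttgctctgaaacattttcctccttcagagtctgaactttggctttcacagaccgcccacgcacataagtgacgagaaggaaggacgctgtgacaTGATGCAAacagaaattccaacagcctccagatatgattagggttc

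Of the effectors, which form the pores of the outer membrane, Bak1 fell and Bax did not pass. Bak1 reached 79.4, 70.3 and 54.0 CPM in NETs-treated libraries, against 101, 89.7 and 90.8 CPM in control libraries. Its groups were apart, with NETs-treated replicate 3 the lowest. Bak1 had a log2 fold change of -0.46 ± 0.13 (SE; adjusted p = 0.0178). This call was lost without control replicate 1 (log2 fold change -0.41, adjusted p = 0.0697), and the value was -0.32 without NETs-treated replicate 3. Bak1 transcripts have a GC content of 57.6%, and with a correction for GC content the log2 fold change was -0.29 (adjusted p = 0.0169). Bak1 (ENSMUSG00000057789.14) spans 27019810 to 27029009 on the minus strand of chromosome 17.

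Bax had 66.7, 61.4 and 47.4 CPM in NETs-treated libraries, against 70.7, 69.9 and 61.5 CPM in control libraries. NETs-treated replicate 1 stood among the control libraries, and replicate 3 stood apart below all others. Its log2 fold change of -0.20 had a 95% interval from -0.49 to 0.09 (adjusted p = 0.214). Bax transcripts have a GC content of 58.4%, and with a correction for GC content the log2 fold change was -0.025 (adjusted p = 0.822). Without NETs-treated replicate 3 it was -0.063. Bax (ENSMUSG00000003873.11) spans 45461697 to 45466898 on the minus strand of chromosome 7.

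The BH3-only genes went separate ways. Bcl2l11, whose product BIM is the main BH3-only regulator of leukocyte survival, rose to 150.4, 157 and 165 CPM in NETs-treated cells, against 64.4, 66.2 and 69.9 CPM in control. The lowest NETs-treated library stood well above the highest control library. Bcl2l11 had a log2 fold change of 1.24 ± 0.07 (SE), a 2.36-fold rise (adjusted p = 3.48e-06). Bcl2l11 (ENSMUSG00000027381.16) spans 128126038 to 128162547 on the plus strand of chromosome 2, and no other annotated gene overlaps it.

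Bbc3, a direct target of p53 that is also induced without it, showed the largest fall among the 10 members. Its level was 14.1, 9.68 and 6.26 CPM with NETs, against 33.3, 30.3 and 27.6 CPM in control libraries. The groups were far apart, though NETs-treated replicate 1 held over 2-fold the level of replicate 3. The log2 fold change was -1.60 ± 0.25 (SE), a level 3.04-fold lower (adjusted p = 8.73e-04). Bbc3 transcripts had the highest GC content of the members, 68.6%, the property with which the libraries' levels drifted. With a correction for GC content the log2 fold change was -1.29 (adjusted p = 2.11e-04), and without NETs-treated replicate 3 it was -1.35. Bbc3 (ENSMUSG00000002083.13) spans 16308393 to 16318205 on the plus strand of chromosome 7.

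Bid, which is cut by caspase-8 and so links death receptors to mitochondria, had 44.97, 49.5 and 42.9 CPM in NETs-treated libraries, against 55.8, 50.9 and 48.1 CPM in control libraries. Its groups overlapped, and the log2 fold change of -0.17 had a 95% interval from -0.38 to 0.03 (adjusted p = 0.140). With scaling by library size only it was -0.25, with an adjusted p of 0.0441. Exons of Bid and Bcl2l13 overlap on opposite strands, and the strand setting of the counting was not stated, so reads of the overlap may be shared between them. Pmaip1 had 59.5, 66.4 and 78.8 CPM in NETs-treated libraries, against 65.7, 65.7 and 66.9 CPM in control libraries. The NETs-treated libraries fell on both sides of the control libraries, which barely differed among themselves. Its log2 fold change of 0.05 had a 95% interval from -0.19 to 0.28 (adjusted p = 0.730), and its sign turned with correction for GC content, with scaling by library size only and without NETs-treated replicate 3.

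**Figure D2:**
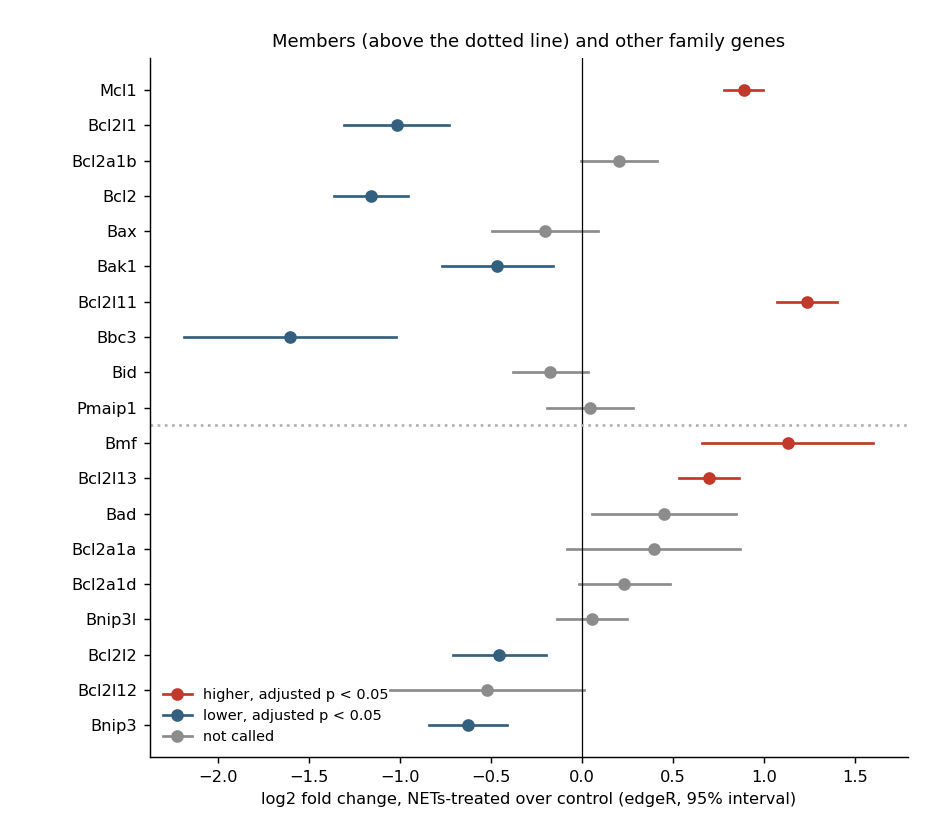
Log2 fold changes of NETs-treated over control cells (horizontal axis) with 95% intervals from edgeR, for the 10 members above the dotted line and 9 other genes of the family below it. Bcl2l11 (1.24), Bmf (1.13), Mcl1 (0.89) and Bcl2l13 (0.70) were called higher, and Bbc3, Bcl2, Bcl2l1, Bnip3, Bak1 and Bcl2l2 were called lower; Bik is left out because its interval is too wide for the axis.

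Promoters of 4 called members are shown because BIM and PUMA are known targets of FOXO transcription factors, and BCL-XL of NF-kB, and because Mcl1 was the most abundant member. RefSeq promoter windows were found for 9 of the 10 members, 14 windows in all, and were searched on both strands for 8 motifs. These were the FOXO core GTAAACA, the C/EBP-ATF composite TGATGNAA, the cyclic AMP response element TGACGTCA, the E-box CACGTG, the STAT palindrome TTCNNNGAA, and the NF-kB consensus, the p53 decamer and the SRF CArG box by their usual consensus. At least 1 match was found in 7 windows of 5 members. Single motifs occurred in 1.64% to 8.36% of all promoter windows. The share of windows holding at least 1 of the 8 was not computed, so this count has no base to be read against. The other windows of Bcl2l11 and Bcl2l1, not shown, held none of the 8 motifs. The FOXO core occurred in a Bcl2l11 window, 227 bases upstream of the start site, and in the second of 3 Bbc3 windows, 167 bases upstream, where 3.66% of all promoter windows held it. The NF-kB consensus occurred in a Bcl2l1 window, 242 bases upstream, where 4.53% of all windows held it. The first Bbc3 window, not shown, held it as a pair of overlapping matches. The Bax window, not shown, held the p53 decamer, 201 bases upstream, where 8.36% of all windows held it. E-box matches lay in the Bax window and in the third Bbc3 window, not shown, where 7.17% of all windows held the E-box. The Mcl1 window held none of the 8 motifs, nor did those of Bcl2, Bak1 and Bid, not shown, which says only that these letters are absent from these stretches. Capitals mark the FOXO core in the Bcl2l11 and Bbc3 sequences and the NF-kB consensus in the Bcl2l1 sequence. The windows lie at chr2:128125788-128126087 (Bcl2l11, plus strand), chr7:16310011-16310310 (Bbc3, plus strand), chr2:152830668-152830967 (Bcl2l1, minus strand) and chr3:95658471-95658770 (Mcl1, plus strand) of GRCm38.p6.
Bcl2l11: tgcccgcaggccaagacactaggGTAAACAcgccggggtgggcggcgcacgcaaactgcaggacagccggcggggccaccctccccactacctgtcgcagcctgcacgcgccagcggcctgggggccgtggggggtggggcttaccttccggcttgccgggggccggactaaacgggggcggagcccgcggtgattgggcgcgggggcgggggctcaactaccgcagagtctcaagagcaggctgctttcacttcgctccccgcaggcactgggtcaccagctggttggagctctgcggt
Bbc3: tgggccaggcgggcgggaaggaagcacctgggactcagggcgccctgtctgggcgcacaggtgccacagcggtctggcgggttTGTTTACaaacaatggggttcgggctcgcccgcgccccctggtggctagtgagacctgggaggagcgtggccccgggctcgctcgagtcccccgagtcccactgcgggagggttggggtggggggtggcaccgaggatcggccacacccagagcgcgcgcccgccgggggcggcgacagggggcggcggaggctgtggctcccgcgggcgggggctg
Bcl2l1: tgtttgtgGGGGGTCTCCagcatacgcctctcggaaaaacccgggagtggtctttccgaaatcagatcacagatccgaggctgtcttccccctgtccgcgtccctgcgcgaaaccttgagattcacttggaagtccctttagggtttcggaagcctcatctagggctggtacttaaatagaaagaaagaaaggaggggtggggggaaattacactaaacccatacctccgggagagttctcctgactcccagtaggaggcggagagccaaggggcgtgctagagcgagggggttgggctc
Mcl1: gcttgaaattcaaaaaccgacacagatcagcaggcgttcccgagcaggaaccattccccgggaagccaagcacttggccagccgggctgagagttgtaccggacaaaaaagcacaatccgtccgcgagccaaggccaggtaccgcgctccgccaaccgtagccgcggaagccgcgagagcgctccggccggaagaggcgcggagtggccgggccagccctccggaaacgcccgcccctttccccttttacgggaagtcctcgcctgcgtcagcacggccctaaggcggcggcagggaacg

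To set the pro- beside the anti-apoptotic genes, CPM were divided by exon length, which gives a level per length that can be compared between genes. Mcl1 led in both groups, with 568 ± 5.86 CPM per kb in NETs-treated and 307 ± 2.17 CPM per kb in control cells (SD, n = 3 each), followed by Bcl2a1b with 152 ± 17.1 in NETs-treated and 132 ± 4.88 CPM per kb in control cells. In NETs-treated cells the next levels were those of Bax (37.1 ± 6.33), Bcl2l1 (28.9 ± 5.37), Bak1 (28.2 ± 5.36) and Pmaip1 (25.0 ± 3.57 CPM per kb), and each of these neighbours overlapped over the libraries. Compared within a library, Bax stood above Bcl2l1 and Bcl2l1 above Bak1 in all 3, and Bak1 above Pmaip1 in 2. Below them stood Bcl2l11 (19.6 ± 0.939), Bid (12.9 ± 0.955), Bbc3 (4.71 ± 1.85) and Bcl2 (2.54 ± 0.221 CPM per kb), whose libraries did not overlap with their neighbours. In control cells Bcl2l1 (58.5 ± 2.23 CPM per kb) stood alone in the third place, ahead of Bax (42.7 ± 3.21) and Bak1 (38.9 ± 2.51), which overlapped. Pmaip1 (24.2 ± 0.251) came next, then Bid (14.5 ± 1.10) and Bbc3 (14.3 ± 1.34), which overlapped, then Bcl2l11 (8.32 ± 0.351) and Bcl2 (5.67 ± 0.104 CPM per kb). Within each control library Bax stood above Bak1, and Bid above Bbc3.

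The 4 anti-apoptotic genes together reached 734, 751 and 769 CPM per kb in the NETs-treated libraries, against 501, 505 and 503 CPM per kb in the control libraries. The 6 pro-apoptotic genes together had 135, 131 and 117 CPM per kb in NETs-treated, against 150.2, 142 and 137 CPM per kb in control libraries. The anti-apoptotic share of the summed level was therefore 84.5%, 85.2% and 86.8% in NETs-treated libraries, against 76.9%, 78.0% and 78.6% in control libraries. The groups did not overlap, and their means differed by 7.61 percentage points, or by 4.77 points with CPM not divided by length. No test was made of this share, since it is a score over chosen genes. Neither the share nor the sums were corrected for GC content, with which the libraries' levels drifted. Without Mcl1 the share was 55.7%, 58.8% and 62.4% in NETs-treated, against 56.3%, 58.0% and 59.2% in control libraries, so that the groups overlapped. The difference between groups thus rested on Mcl1, which made up 75.6% ± 1.08 of the anti-apoptotic sum in NETs-treated and 61.0% ± 0.450 in control cells (SD, n = 3 each).

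**Figure D3:**
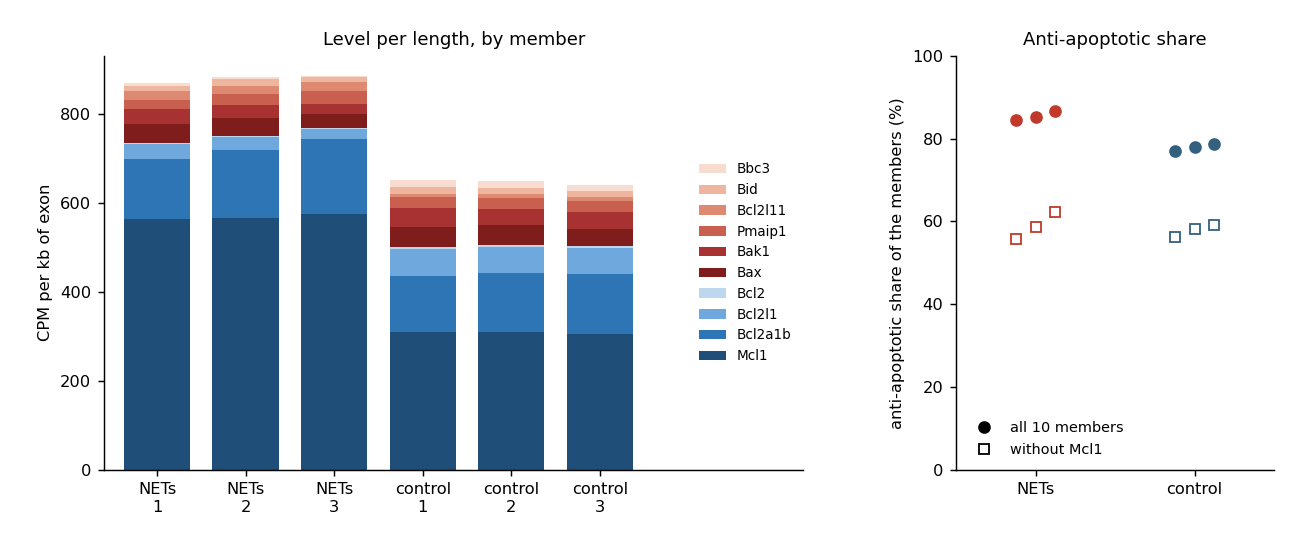
Left, CPM per kb of exon of the 10 members stacked for each library, with anti-apoptotic genes in blue and pro-apoptotic genes in red; right, the anti-apoptotic share of the summed level in percent, with and without Mcl1. The share of all 10 members lies between 84.5% and 86.8% in NETs-treated and between 76.9% and 78.6% in control libraries, and the groups overlap without Mcl1.

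Within each side the makeup shifted. The ratio of Mcl1 to Bcl2l1, both per length, was 16.7, 19.0 and 24.8 in NETs-treated libraries, against 5.05, 5.42 and 5.29 in control libraries. Across the sides, the ratio of Bcl2l11 to Bcl2 per length was 8.20, 7.29 and 7.78 in NETs-treated libraries, against 1.39, 1.47 and 1.548 in control libraries. Both ratios set a member called higher over a member called lower, so a higher ratio with NETs follows from the choice of pair. Bcl2l11 supplied 15.5% ± 1.93 of the pro-apoptotic sum in NETs-treated and 5.84% ± 0.520 in control cells (SD, n = 3 each). These ratios are taken within a library and do not depend on how libraries are scaled to each other, though they do depend on the exon lengths used.

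**Figure D4:**
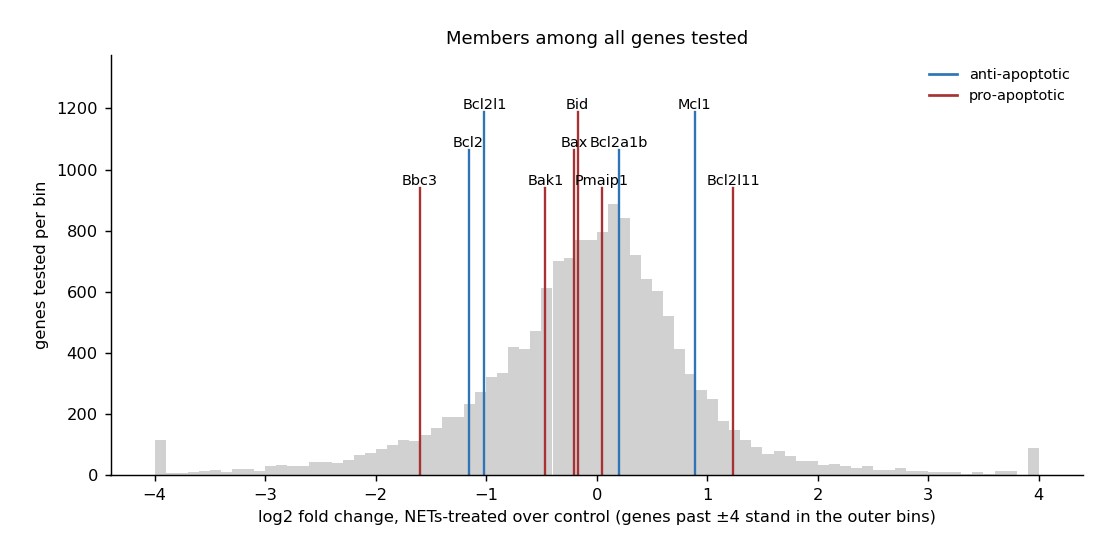
Histogram of the log2 fold changes of all 15272 genes tested (horizontal axis, NETs-treated over control; vertical axis, genes per bin) with lines for the 10 members, blue for anti-apoptotic and red for pro-apoptotic genes. Both colours stand on both sides of 0, from Bbc3 at -1.60 to Bcl2l11 at 1.24.

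Among 15 further genes of the family, 10 were tested, of which 2 rose and 2 fell, where 52.7% of all genes tested were called. Bmf, a BH3-only gene, rose to 10.5, 9.004 and 13.3 CPM in NETs-treated libraries, against 4.70, 4.25 and 6.06 CPM in control libraries (log2 fold change 1.13 ± 0.21, SE; adjusted p = 0.00189). Bcl2l13, a mitochondrial membrane protein known as a mitophagy receptor, rose by 0.70 ± 0.07 on the log2 scale (SE) and is the gene that overlaps Bid. Bnip3, a mitophagy receptor induced by hypoxia, fell to 172 ± 19.8 CPM in NETs-treated cells, against 265 ± 16.1 CPM in control (SD, n = 3 each), while its relative Bnip3l had a log2 fold change of 0.05 ± 0.08 (adjusted p = 0.613). Bcl2l2, the anti-apoptotic gene of BCL-W, fell to 30.9, 24.1 and 30.3 CPM in NETs-treated cells, against 41.4, 37.5 and 37.9 CPM in control (adjusted p = 0.00884), a call lost with correction for GC content (adjusted p = 0.0652). The BH3-only gene Bad had 12.04, 11.4 and 14.3 CPM in NETs-treated libraries, against 11.2, 8.77 and 7.62 CPM in control libraries, which were apart but did not pass (adjusted p = 0.0563). Bad was called higher under 4 of 15 other processing choices, among them the correction for GC content (log2 fold change 0.66, adjusted p = 0.0133). Bik had 0.235, 0 and 0 CPM in NETs-treated libraries, against 0.907, 0.487 and 0.551 CPM in control libraries (adjusted p = 0.0504). It was called lower under 7 of 14 other processing choices, among them limma-voom (adjusted p = 0.00925). DESeq2 (adjusted p = 0.0289) and the authors' deposited table (adjusted p = 0.0295), which gave the same log2 fold change, were also among these 7. Bcl2l12 had a log2 fold change of -0.52 ± 0.23 (adjusted p = 0.0936). Bcl2l10, Bok, Hrk, Bcl2l14 and Bcl2l15 had too few counts to be tested.

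Downstream of the family stand the apoptosome, the caspases and their inhibitors, of which 8 of 17 tested genes rose and 3 fell (median log2 fold change 0.29), against 25.5% called higher and 27.2% called lower among all genes tested. Htra2, a mitochondrial protease that antagonises caspase inhibitors once released, had a log2 fold change of -1.30 ± 0.14 (SE). The NF-kB-induced ubiquitin ligase gene Birc3, which encodes cIAP2, rose to 66.1 ± 0.626 CPM in NETs-treated cells, against 33.2 ± 1.17 CPM in control (SD, n = 3 each).

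Among 16 tested partners of BCL2 proteins and factors of their turnover, 5 rose and 3 fell (median log2 fold change -0.04), a share of calls close to the 52.7% of all genes tested. The IP3 receptors, calcium channels of the endoplasmic reticulum that BCL2 binds, were the 3 that fell. Itpr2 had a log2 fold change of -1.19 ± 0.16 (SE) and Itpr1 of -0.81 ± 0.09. Dynll2, a dynein light chain that tethers BMF to the myosin V motor, rose with a log2 fold change of 0.56 ± 0.08. Fbxw7, the substrate receptor of a ubiquitin ligase that marks MCL1 for degradation, rose to 42.8, 39.4 and 41.8 CPM in NETs-treated libraries, against 33.0, 27.9 and 28.3 CPM in control libraries (adjusted p = 0.00288).

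Transcription factors known to act on BH3-only genes moved in both directions, 2 higher and 3 lower of 8 tested, where 52.7% of all genes tested were called in either direction. Foxo1 rose to 82.7, 91.8 and 85.4 CPM in NETs-treated libraries, against 41.98, 36.0 and 44.6 CPM in control libraries (log2 fold change 1.08 ± 0.10, SE). Foxo3 rose to 150.3, 155 and 133 CPM in NETs-treated libraries, against 78.95, 77.6 and 72.8 CPM in control libraries (log2 fold change 0.93 ± 0.08). For both genes the groups were well apart. Ddit3, which encodes the stress factor CHOP, fell to 5.62, 3.89 and 4.93 CPM in NETs-treated libraries, against 140, 125 and 133 CPM in control libraries (log2 fold change -4.78 ± 0.14). Atf4, which acts upstream of Ddit3, had a log2 fold change of -0.93 ± 0.13. Trp53, the gene of p53, had a log2 fold change of -0.12 ± 0.12 (adjusted p = 0.412).

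For each member called with at least a 2-fold change, the most similar genes were sought among 8634 genes averaging 10 CPM or more, by the Euclidean distance of centred log2 CPM over the 6 samples. Nearest to Bcl2l11 were D16Ertd472e, Ginm1 and Bdp1, at distances of 0.07 to 0.10. Those nearest to Bcl2 were Pih1d1, Vwa8 and Ipo8 (0.07 to 0.12), and those nearest to Bcl2l1 were Phpt1, Cltb and Ubtf (0.06 to 0.09). Bbc3 had no such close neighbour, its nearest being Lyl1, Pla2g2e and Tnfaip8l2 at 0.24 to 0.31. With 2 groups of 3 samples such likeness rests mainly on a similar fold change.

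**Figure D5:**
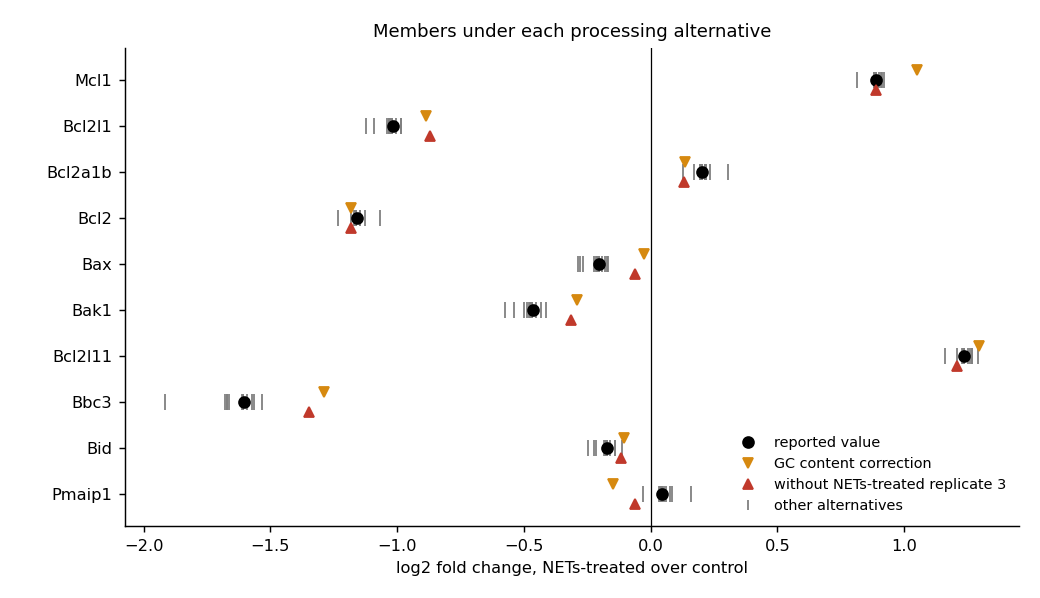
Log2 fold change of each member (horizontal axis, NETs-treated over control) as reported (black), with correction for GC content (orange), without NETs-treated replicate 3 (red) and under the other processing choices (grey ticks). Mcl1, Bcl2l11, Bcl2, Bcl2l1 and Bbc3 stay on their side of 0 by a wide margin, while Pmaip1 lies on both sides.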

How the data were processed

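RNA from 3 NETs-treated and 3 control samples was sequenced with a stranded kit, per the labels' protocols. HISAT2 and DESeq2 appear in the submitters' processing notes, as do both a rat build (rn6) and a mouse build (mm10), with no versions or roles. The counter and its strand setting were not stated. The authors deposited 1 table holding a raw count for each gene in each sample. It also holds normalised counts, a signal equal to the deposited count divided by a size factor, and the authors' log2 fold changes and p-values. Samples were grouped by the treatment label.

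Counts were tested with the quasi-likelihood test of edgeR 4.0.16 (R 4.3.3), with TMM scaling after filterByExpr (minimum count 10, minimum total 15), two-sided, without covariates, on all 6 samples. Benjamini-Hochberg adjustment ran over all 15272 genes tested, with a threshold of 0.05. The procedure was tested on simulated data. The tested genes held 99.9% of all counts, and the biological coefficient of variation was 18.5%. No pair of libraries in a group agreed within sampling noise (chi-square per gene 9.77 to 77.2), so none was treated as 1 library deposited again; this does not show that they were separate cultures. Without molecular identifiers, PCR copies count as separate reads. Exon length, GC content and coordinates came from GENCODE M21 (GRCm38), which matched 55141 of 55401 identifiers, and promoter sequences from RefSeq (GRCm38.p6).

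Alternatives were other scalings and filters, DESeq2 1.42.0, limma-voom (limma 3.58.1), the replicate number as a block, a lowess correction (span 0.3) for transcript GC content, leaving out each sample in turn, and the authors' deposited table. DESeq2 and the deposited table gave the same log2 fold change for each member and are not independent, though each is counted as a choice. The members and lists were chosen with earlier results of these data known. All members were named, as were all tested genes of the wider family and up to 4 called genes with the largest change from each other list, some of which are not reported here; Trp53 and genes that overlap a member were named after their values were seen. Marker lists were those of macrophages, microglia, neutrophils, T cells, B cells and fibroblasts. The last 3 had summed levels of at most 1.58, 0.282 and 0 CPM in NETs-treated and 4.01, 0.348 and 0.0930 CPM in control libraries.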

Additional observations from a re-analysis of the deposited data

How the results depend on the processing

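Under all 15 other processing choices, Mcl1 (log2 fold change 0.81 to 1.05), Bcl2l11 (1.16 to 1.29), Bcl2 (-1.23 to -1.07), Bcl2l1 (-1.12 to -0.87) and Bbc3 (-1.91 to -1.29) kept their call and direction, and Bak1 (-0.57 to -0.29) lost its call without control replicate 1. Bcl2a1b was called without NETs-treated replicate 1 and with the replicate block (adjusted p = 0.0472), and Bid with scaling by library size only. The log2 fold change of Pmaip1 changed sign with library size only (-0.028) and with GC correction (-0.15), and ran from -0.060 to 0.16 with 1 replicate left out, and that of Bnip3l with library size only (-0.020), running from -0.0072 to 0.15 with 1 replicate left out; none of these values passed the test, and the cause was not tested. Leaving out 1 replicate gave 5 to 7 called members. The difference in the anti-apoptotic share, 7.61 percentage points, was 1.12 without Mcl1, 4.77 with CPM not divided by length and 7.01 with other family members, and 6.96 to 8.13 with 1 replicate left out. Samples with the same replicate number had correlations of their deviations of 0.12, 0.03 and 0.07, and every sample correlated best with its own number; since the labels tie no numbers together, these are treated as unpaired, and the replicate block gave 7 called members, against 6 without it. Counts per member and library ran from 245 for Bbc3 to 81975 for Mcl1.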
